A study of Mus musculus with 12 samples.

Results

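The endoplasmic reticulum (ER) folds and checks the proteins that a pituitary cell secretes, and 38 genes of this machinery were followed in pituitary tumors of pro-opiomelanocortin knockout (POMC KO) mice. The list was fixed by name, but it was chosen with earlier results of these data known. Each gene is represented by the probe set with the highest mean over the 12 arrays among those annotated to that gene alone. All 38 were on the array, out of 18194 genes with such a probe set. All 38 also passed the filter on low signal, as did 12305 of all genes. The groups were tumors of mice with both Pomc alleles deleted (homozygous, DKO in the labels, 2 arrays), tumors of mice with 1 allele deleted (heterozygous, SKO, 8 arrays) and normal mouse pituitary (2 arrays). No sample was treated, and strain, age and sex are not in the labels. The tumor arrays fell into 5 pairs with nearly identical values, which were averaged. The comparisons therefore rest on 1 homozygous sample (1-2), 4 heterozygous samples (1-2, 3-4, 5-6 and 7-8) and 2 normal samples.

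Proteins enter the ER through the translocon, lose their signal peptide, and are folded by chaperones and by enzymes that form disulfide bonds. Proteins that fail to fold are sent back to the cytosol for degradation. When unfolded proteins build up, the sensors Ern1 (IRE1), Eif2ak3 (PERK) and Atf6 start the unfolded protein response, in which spliced Xbp1, cleaved Atf6 and translated Atf4 turn on genes of folding and degradation. Splicing, cleavage and phosphorylation are not measured by these arrays, which give the amount of transcript only. Melanotrophs and corticotrophs, the cells that make POMC, pass large amounts of this prohormone through the ER.

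Values are given as log2 signal, in which a difference of 1 is a doubling, and they are compared within a gene only. A gene was called changed at an adjusted p under 0.05 with a fold change over 2. Duplicate tumor arrays correlated at 0.997 to 0.998 and differed more than 2-fold at 0 to 4 probe sets, against 434 to 982 between arrays of different heterozygous pairs and 310 between the normal arrays. The labels count each array as a sample, so the pairing rests on the values. The homozygous group then had no spread of its own, and its tests borrow the spread of the other groups. The study's methods call the normal mouse pituitary pooled, and the labels list 2 normal samples without saying whether they came from separate pools, so p-values measure only the spread between these samples, which may be technical.

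Pomc itself checked the labels. Its signal was 7.18 in the homozygous sample, 15.15 to 15.30 in the heterozygous samples and 15.08 and 15.11 in normal pituitary, so the heterozygous tumors kept their POMC transcript. Of other melanotroph and corticotroph genes, Pax7 was at 10.38, 10.84 to 11.47, and 9.92 and 9.50 in the same order. Neurod1 was at 6.85, 3.91 to 4.33, and 6.74 and 7.02, and Tbx19 was at 9.59, 9.50 to 10.48, and 9.66 and 9.72. The summed signal of 3 somatotroph and lactotroph markers was 15.89 in the homozygous sample, 14.83 to 15.87 in heterozygous samples and 15.81 in both normal samples. Nearly all of this sum is Gh and Prl. The third marker, Ghrhr, was lower in tumors, at 6.45 in the homozygous sample, 5.66 to 7.96 in heterozygous samples and 9.63 and 9.72 in normal pituitary. The summed signal of 8 macrophage markers was 11.4 in the homozygous sample, 11.9 to 12.8 in heterozygous samples and 9.59 to 9.86 in normal pituitary. The summed signal of 5 gonadotroph and thyrotroph markers was 14.5 in the homozygous sample, 11.1 to 14.1 in heterozygous samples and 15.5 in both normal samples. Most of this sum is Cga, at 14.30 in the homozygous sample and 14.73 and 14.72 in normal pituitary. Single markers differed more, with Lhb at 8.86 against 12.02 and 12.22, and Fshb at 8.75 against 13.06 and 12.96. The summed signal of 4 markers of posterior lobe glia was 8.26 in the homozygous sample, 7.21 to 7.45 in heterozygous samples and 9.89 to 10.01 in normal pituitary. Xist, a marker of female tissue, was at 11.20 in the homozygous sample and at 5.07 and 4.57 in normal pituitary. Among heterozygous samples it was at 10.93 and 11.25 in 3-4 and 7-8, and at 4.58 and 5.0 in 1-2 and 5-6. Between the homozygous and normal samples alone, genotype and this marker of sex cannot be told apart. In bulk tissue, fewer cells of a type and less RNA per cell cannot be told apart, and the part of these differences in the results was not tested.

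The promoters of the members were also read, with the expression values already known. Many genes of the unfolded protein response are known to be switched on through the ER stress response element. Its first form is CCAAT and CCACG with 9 bases between them, and its second form is ATTGG and CCACG with 1 base between them. RefSeq promoters (GRCm38.p6, 250 bases before to 50 after the start) matched 31 of the 38 members. On either strand, the first form was present in 8 of 31 (25.8%), against 0.119% of 32851 mouse promoters of this length. The second form was present in 2 (6.45%), against 0.0365%. The Atf4 composite element, TGATG and AA with 1 base between them, was present in 2 (6.45%; Herpud1 and Trib3), against 3.97%. Lists of this kind are drawn in part from genes known to answer to ER stress, so the shares describe the list and are not tested. The windows below hold the match with 20 bases on each side, 5′ to 3′ on the strand of the gene, with the ends of the element in capitals. A match on the opposite strand reads CGTGG and then ATTGG. They are shown because these genes are set apart from the other members further on, with Canx and Syvn1 as members in which the homozygous sample was not the highest, and with Derl3, a degradation gene outside the 38.
Creld2 (chr15:88819500-88819558, plus strand): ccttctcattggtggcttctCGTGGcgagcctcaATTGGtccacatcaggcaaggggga
Dnajc3 (chr14:118937807-118937865, plus strand): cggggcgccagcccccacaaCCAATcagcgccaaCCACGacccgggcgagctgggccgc
Hspa5 (chr2:34772005-34772063, plus strand): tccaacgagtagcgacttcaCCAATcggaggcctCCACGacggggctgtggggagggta
Hsp90b1 (chr10:86705513-86705676, minus strand): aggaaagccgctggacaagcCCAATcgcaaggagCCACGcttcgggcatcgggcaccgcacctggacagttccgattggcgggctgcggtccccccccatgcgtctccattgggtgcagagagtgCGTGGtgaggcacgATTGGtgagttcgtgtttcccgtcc
Calr (chr8:84847055-84847113, minus strand): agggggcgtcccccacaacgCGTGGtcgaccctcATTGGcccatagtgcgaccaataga
Pdia6 (chr12:17266471-17266529, plus strand): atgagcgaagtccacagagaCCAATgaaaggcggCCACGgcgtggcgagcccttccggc
Herpud1 (chr8:94386357-94386407, plus strand): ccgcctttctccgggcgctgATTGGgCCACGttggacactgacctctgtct
Derl3 (chr10:75893222-75893280, plus strand): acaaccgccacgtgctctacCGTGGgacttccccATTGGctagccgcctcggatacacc
Canx (chr11:50325780-50325838, minus strand): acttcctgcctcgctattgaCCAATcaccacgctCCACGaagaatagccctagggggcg
Syvn1 (chr19:6046512-6046570, plus strand): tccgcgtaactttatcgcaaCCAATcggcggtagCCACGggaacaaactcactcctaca
The Hsp90b1 window holds 2 matches. In Herpud1 the element is of the second form, and the element of Dnajb11 lies after the start site and is not shown.

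In homozygous tumors, 1 of 38 members rose and none fell. The member that rose was Creld2, an ER protein produced under folding stress. Over all genes tested the same rule called 1.43% higher and 1.3% lower. With the adjusted p alone, without the minimum fold, the counts of members were again 1 and 0, against 1.59% and 1.58% of all genes. At an unadjusted p under 0.05, 14 members were higher and 1 was lower, against 9.03% and 10.2% of all genes. The median log2 fold change of the 38 was 0.40, against -0.03 over all genes tested.

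In heterozygous tumors, none of the 38 was called in either direction, against 5.57% of all genes called higher and 4.5% called lower. The one-way F test of limma also gave 0. At an unadjusted p under 0.05, 9 members were higher and 2 were lower, against 20% and 19.1% of all genes. With the adjusted p alone, 2 members rose (Prdx4 and Edem1) and 1 fell (Sel1l), against 12.7% and 11.5% of all genes. The median of the 38 was 0.14, against 0.00 over all genes, and it was 0.08 without heterozygous sample 5-6. Both tumor comparisons share the same 2 normal samples.

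**Figure D1:**
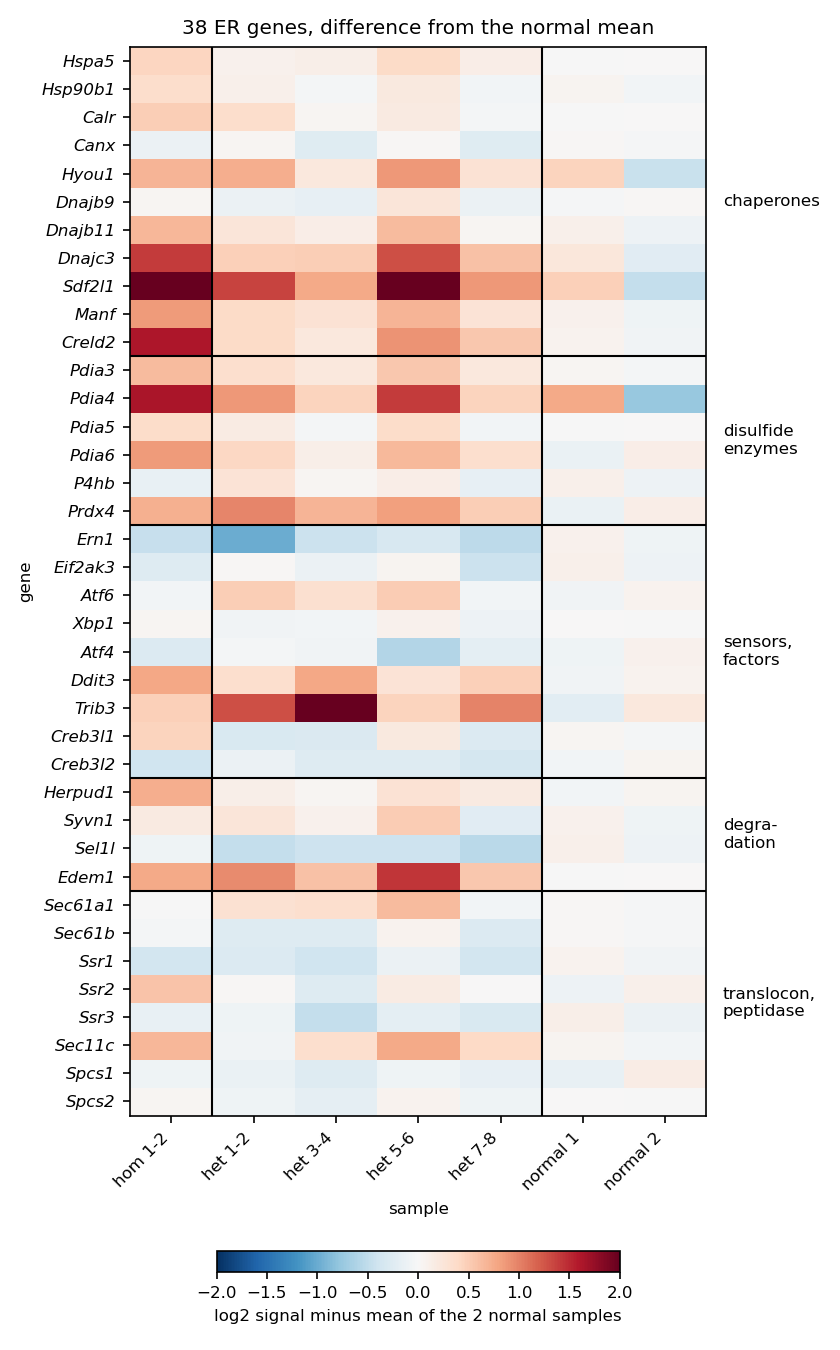
Difference of each of the 38 genes from the mean of the 2 normal samples (colour, log2 signal) in the 7 samples, with homozygous left of heterozygous and normal samples and genes grouped by role. The chaperones and disulfide enzymes are most red in the homozygous sample and in heterozygous sample 5-6, where their medians are 0.66 and 0.63 for chaperones. Sdf2l1 lies beyond the end of the colour scale in these 2 samples.

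Chaperones and co-chaperones stood highest of the roles together with the disulfide enzymes. Their median difference from normal was 0.66 in homozygous and 0.26 in heterozygous tumors, and 10 and 9 of 11 were above 0. After centring on housekeeping genes the medians were 0.55 and 0.15, and in heterozygous tumors the median was 0.14 without heterozygous sample 5-6 and 0.17 without normal sample 2. Creld2 had a signal of 11.99 in the homozygous sample, 10.76, 10.58, 11.27 and 10.91 in heterozygous samples and 10.44 and 10.31 in normal pituitary. The 3 genotypes did not overlap, with the homozygous sample on top. Creld2 was 3.06-fold higher in homozygous tumors than in normal pituitary (log2 1.61, SE 0.27, adjusted p = 0.0323) and 1.42-fold higher in heterozygous tumors (log2 0.50, SE 0.19, adjusted p = 0.102). Without normal sample 1 or 2 the adjusted p for the homozygous sample was 0.113 or 0.131, without heterozygous sample 1-2 it was 0.0521, and with Xist as a covariate it was 0.0568.

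Genes that did not pass are described in the following paragraphs where their values help to show the order of the samples. Apart from Creld2 and 7 genes of the response that were to be given in any case (Hspa5, Xbp1, Atf4, Atf6, Ern1, Eif2ak3 and Ddit3), they were chosen after their values were seen. Sdf2l1, which works with Hspa5 and Dnajb11 on unfolded proteins, had 11.78 in the homozygous sample, 10.88, 10.28, 11.59 and 10.38 in heterozygous samples and 10.002 and 9.04 in normal pituitary. All 5 tumor samples were above both normal samples, but the normal samples lay 0.96 apart. The difference from normal was 2.26 (SE 0.58, adjusted p = 0.0953) in homozygous and 1.26 (SE 0.41, adjusted p = 0.0646) in heterozygous tumors.

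Dnajc3 (p58IPK), a co-chaperone of Hspa5, had 12.05 in the homozygous sample, 11.13, 11.14, 11.94 and 11.23 in heterozygous samples and 10.88 and 10.41 in normal pituitary. Here the homozygous sample and heterozygous sample 5-6 stood apart from the other 3 tumor samples. The differences from normal were 1.40 (adjusted p = 0.0992) and 0.72 (adjusted p = 0.0890) in homozygous and heterozygous tumors. Manf, an ER protein that is secreted under stress, had 13.55 in the homozygous sample, 13.09, 13.00, 13.39 and 12.97 in heterozygous samples and 12.79 and 12.62 in normal pituitary. Its tumor and normal samples did not overlap, and the adjusted p was 0.0887 in homozygous and 0.0906 in heterozygous tumors.

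Hspa5 (BiP), the main Hsp70 chaperone of the ER, had 14.19 in the homozygous sample, 13.86, 13.88, 14.15 and 13.89 in heterozygous samples and 13.76 and 13.78 in normal pituitary. The tumor samples were all above normal by small amounts. The log2 differences were 0.42 (95% confidence interval 0.01 to 0.83, adjusted p = 0.262) in homozygous and 0.18 (-0.11 to 0.47, adjusted p = 0.337) in heterozygous tumors. Calr and Hsp90b1, a lectin chaperone and the ER form of Hsp90, differed from normal by 0.49 and 0.35 in homozygous tumors and by 0.13 and 0.05 in heterozygous tumors. The other tested probe set of Hsp90b1 differed by 0.90 in homozygous and 0.37 in heterozygous tumors. Canx, the membrane-bound partner of Calr, differed by -0.11 in both, but its other 2 probe sets were above 0 in both, at up to 0.41 in homozygous and 0.35 in heterozygous tumors. Dnajb9, a co-chaperone of Hspa5, differed by 0.04 and -0.04.

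**Figure D2:**
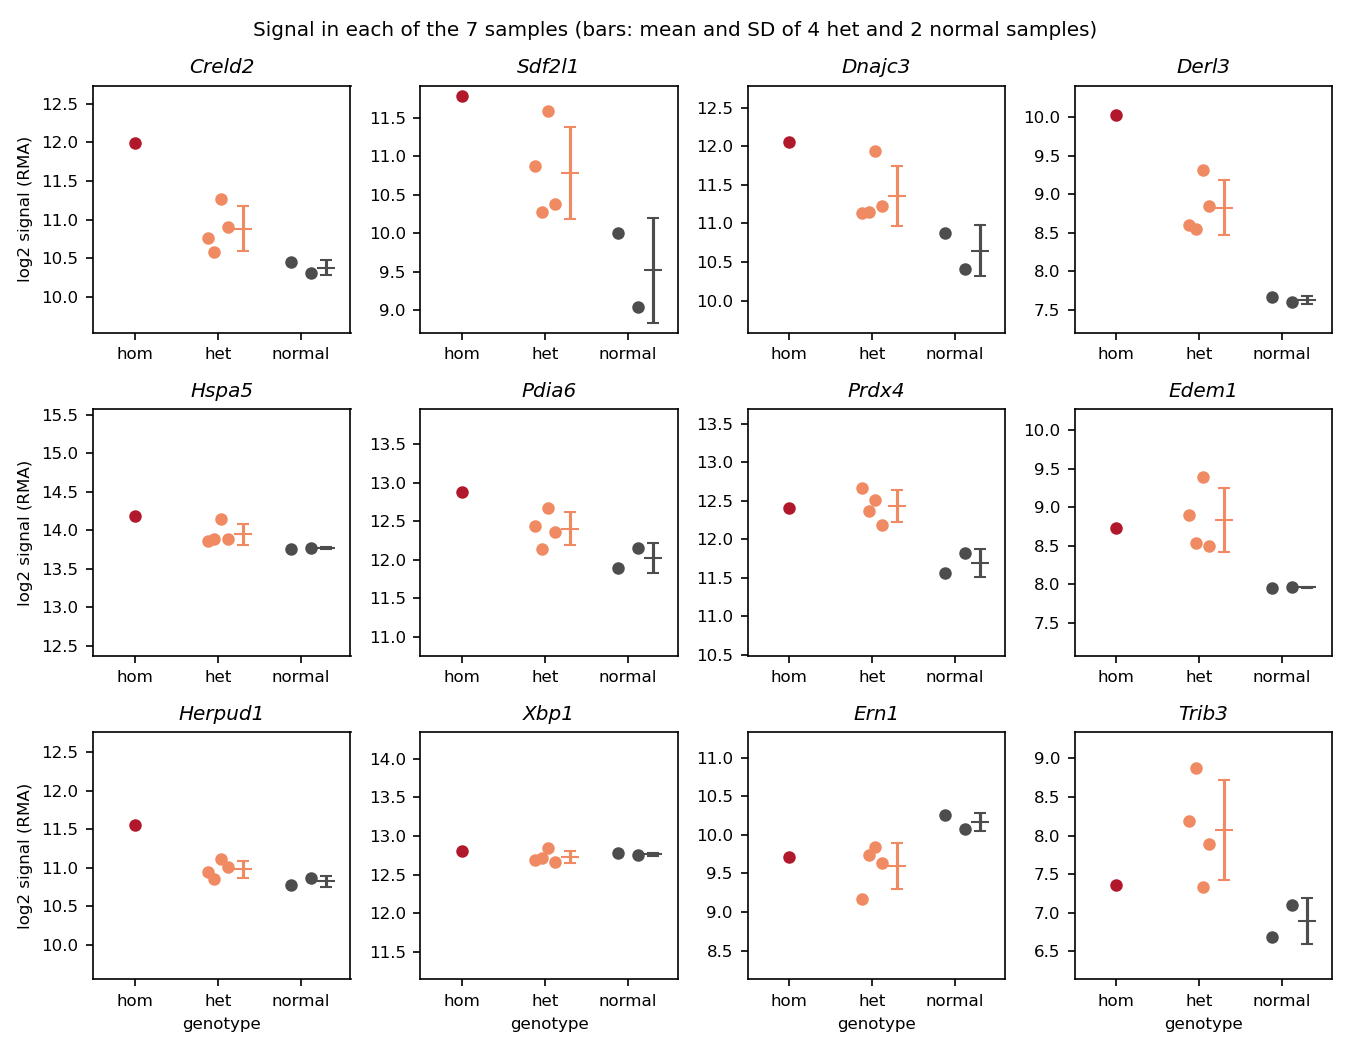
Log2 signal of 12 genes in each of the 7 samples (points), homozygous left of heterozygous and normal, with the mean and SD of the 4 heterozygous and the 2 normal samples as bars; every panel spans the same number of log2 units. Creld2 and Derl3 are highest in the homozygous sample (11.99 and 10.03), and Trib3 is highest in heterozygous sample 3-4 (8.88). The chosen probe set of Xbp1 lies between 12.66 and 12.84 in all samples.

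Disulfide enzymes had a median difference of 0.67 in homozygous and 0.35 in heterozygous tumors, and 5 and 6 of 6 were above 0 (5 and 4 after centring on housekeeping genes). Without normal sample 2 the heterozygous median was 0.21, with 5 of 6 above 0. Prdx4, a peroxiredoxin that passes oxidizing power from peroxide to these enzymes, had 12.40 in the homozygous sample, 12.66, 12.36, 12.51 and 12.18 in heterozygous samples and 11.56 and 11.82 in normal pituitary. All tumor samples were above both normal samples. In heterozygous tumors Prdx4 rose by the adjusted p alone, at 1.67-fold (log2 0.74, SE 0.16, adjusted p = 0.0177). A second probe set of Prdx4 passed both thresholds there (log2 1.11, adjusted p = 0.0053).

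The protein disulfide isomerases differed among themselves. Pdia6 had 12.88 in the homozygous sample, 12.44, 12.15, 12.67 and 12.36 in heterozygous samples and 11.89 and 12.16 in normal pituitary. Its lowest heterozygous sample lay just below the higher normal sample, and the differences were 0.85 (adjusted p = 0.115) and 0.38 (adjusted p = 0.144). Pdia4 had 9.80 in the homozygous sample, 9.05, 8.63, 9.57 and 8.62 in heterozygous samples and 8.94 and 7.42 in normal pituitary. The 2 normal samples lay 1.52 apart, and the difference of 1.63 in homozygous tumors had an adjusted p of 0.224. P4hb, which also serves collagen hydroxylation, differed by -0.15 and 0.07 in homozygous and heterozygous tumors.

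The sensors and transcription factors had a median difference of -0.05 in homozygous and -0.12 in heterozygous tumors, with 4 and 3 of 9 above 0, and none passed the test. With the median over the probe sets of a gene the medians were 0.00 and 0.04, so no direction is given for this role. Xbp1 had 12.80 in the homozygous sample, 12.69, 12.71, 12.84 and 12.66 in heterozygous samples and 12.77 and 12.75 in normal pituitary. The 3 genotypes overlapped, and the 95% confidence intervals of the difference were -0.32 to 0.40 in homozygous and -0.29 to 0.22 in heterozygous tumors. Its other 3 tested probe sets were above 0 in both, at up to 0.68 in homozygous and 0.42 in heterozygous tumors. These probe sets do not separate spliced from unspliced Xbp1.

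Ern1, the sensor that splices Xbp1, had 9.71 in the homozygous sample, 9.17, 9.74, 9.84 and 9.64 in heterozygous samples and 10.25 and 10.08 in normal pituitary. Every tumor sample was below both normal samples, and the difference was -0.45 (adjusted p = 0.442) in homozygous and -0.57 (adjusted p = 0.0765) in heterozygous tumors. Eif2ak3 differed by -0.25 (adjusted p = 0.625) and -0.12 (adjusted p = 0.651). Atf6 had 8.69 in the homozygous sample, 9.23, 9.06, 9.25 and 8.70 in heterozygous samples and 8.67 and 8.82 in normal pituitary, and its groups overlapped. Over the tested probe sets of Ern1, the difference ran between -0.45 and 0.50 in homozygous and between -0.57 and -0.02 in heterozygous tumors.

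Atf4, Ddit3 and Trib3 form the branch below Eif2ak3, in which Atf4 turns on Ddit3 (CHOP), and both turn on Trib3, a pseudokinase. Atf4 had 11.01 in the homozygous sample, 11.26, 11.23, 10.71 and 11.11 in heterozygous samples and 11.21 and 11.38 in normal pituitary. It differed by -0.28 and -0.22 in homozygous and heterozygous tumors, but by 0.26 and 0.31 in a second tested probe set. Ddit3 had 9.41 in the homozygous sample, 8.96, 9.40, 8.90 and 9.10 in heterozygous samples and 8.55 and 8.70 in normal pituitary. Tumor samples were above normal in Ddit3 and mixed in Atf4, and the differences in Ddit3 were 0.78 (adjusted p = 0.133) and 0.46 (adjusted p = 0.0810) in homozygous and heterozygous tumors. Trib3 had 7.36 in the homozygous sample, 8.18, 8.88, 7.34 and 7.89 in heterozygous samples and 6.68 and 7.10 in normal pituitary. It differed from normal by 1.18 in heterozygous tumors (SE 0.38, adjusted p = 0.0639) and by 0.47 in homozygous tumors (adjusted p = 0.701).

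Creb3l1 and Creb3l2 are transcription factors that are held in the ER membrane until they are cleaved. Creb3l1 had 7.91 in the homozygous sample, 7.16, 7.17, 7.66 and 7.18 in heterozygous samples and 7.50 and 7.42 in normal pituitary. It was the one member of this role, besides Ddit3, that was highest in the homozygous sample. Creb3l2 was below both normal samples in all 5 tumor samples, by -0.40 (adjusted p = 0.254) and -0.24 (adjusted p = 0.166) in homozygous and heterozygous tumors.

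Of the 4 degradation genes, Edem1 and Sel1l moved in opposite directions in heterozygous tumors. Edem1, which draws misfolded glycoproteins out of the folding cycle, had 8.73 in the homozygous sample, 8.90, 8.54, 9.39 and 8.49 in heterozygous samples and 7.96 and 7.97 in normal pituitary. All tumor samples were above normal, and by the adjusted p alone it rose 1.83-fold in heterozygous tumors (log2 0.87, SE 0.25, adjusted p = 0.0449). Sel1l, which holds the ubiquitin ligase Syvn1 (HRD1) in its complex, had 10.06 in the homozygous sample, 9.66, 9.73, 9.74 and 9.60 in heterozygous samples and 10.25 and 10.04 in normal pituitary. By the adjusted p alone it fell in heterozygous tumors (log2 -0.46, SE 0.11, adjusted p = 0.0271), but its 5 probe sets ran between -0.46 and 0.81, and their median was 0.02.

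Herpud1, a membrane protein that gathers the degradation complex, had 11.55 in the homozygous sample, 10.94, 10.86, 11.11 and 11.01 in heterozygous samples and 10.78 and 10.87 in normal pituitary. The homozygous sample stood clear of all others, while heterozygous and normal samples met. The difference from normal was 0.73 (SE 0.16, adjusted p = 0.0690) in homozygous and 0.16 (adjusted p = 0.371) in heterozygous tumors. Syvn1 differed by 0.18 and 0.15, but by -0.18 and -0.03 in its other tested probe set.

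None of the 8 translocon and signal peptidase genes passed the test in either comparison. Their median difference was -0.02 in homozygous and -0.12 in heterozygous tumors, and with the median over the probe sets of a gene it was 0.11 and -0.0049, so no direction is given for this role. In homozygous tumors 6 of 8 lay within 0.5 of 0, against 78.9% of all genes, and in heterozygous tumors 8 of 8, against 73.9%. Those beyond 0.5 in homozygous tumors were Ssr2, a subunit of the translocon-associated complex, at 0.57 (adjusted p = 0.208) and Sec11c, a catalytic subunit of signal peptidase, at 0.67 (adjusted p = 0.295). Sec61a1, the channel itself, differed by 0.00 in homozygous tumors (95% confidence interval -0.62 to 0.61) and by 0.31 in heterozygous tumors (-0.13 to 0.74). Over its tested probe sets the difference ran between -0.49 and 0.43 in homozygous and between -0.14 and 0.81 in heterozygous tumors.

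**Figure D3:**
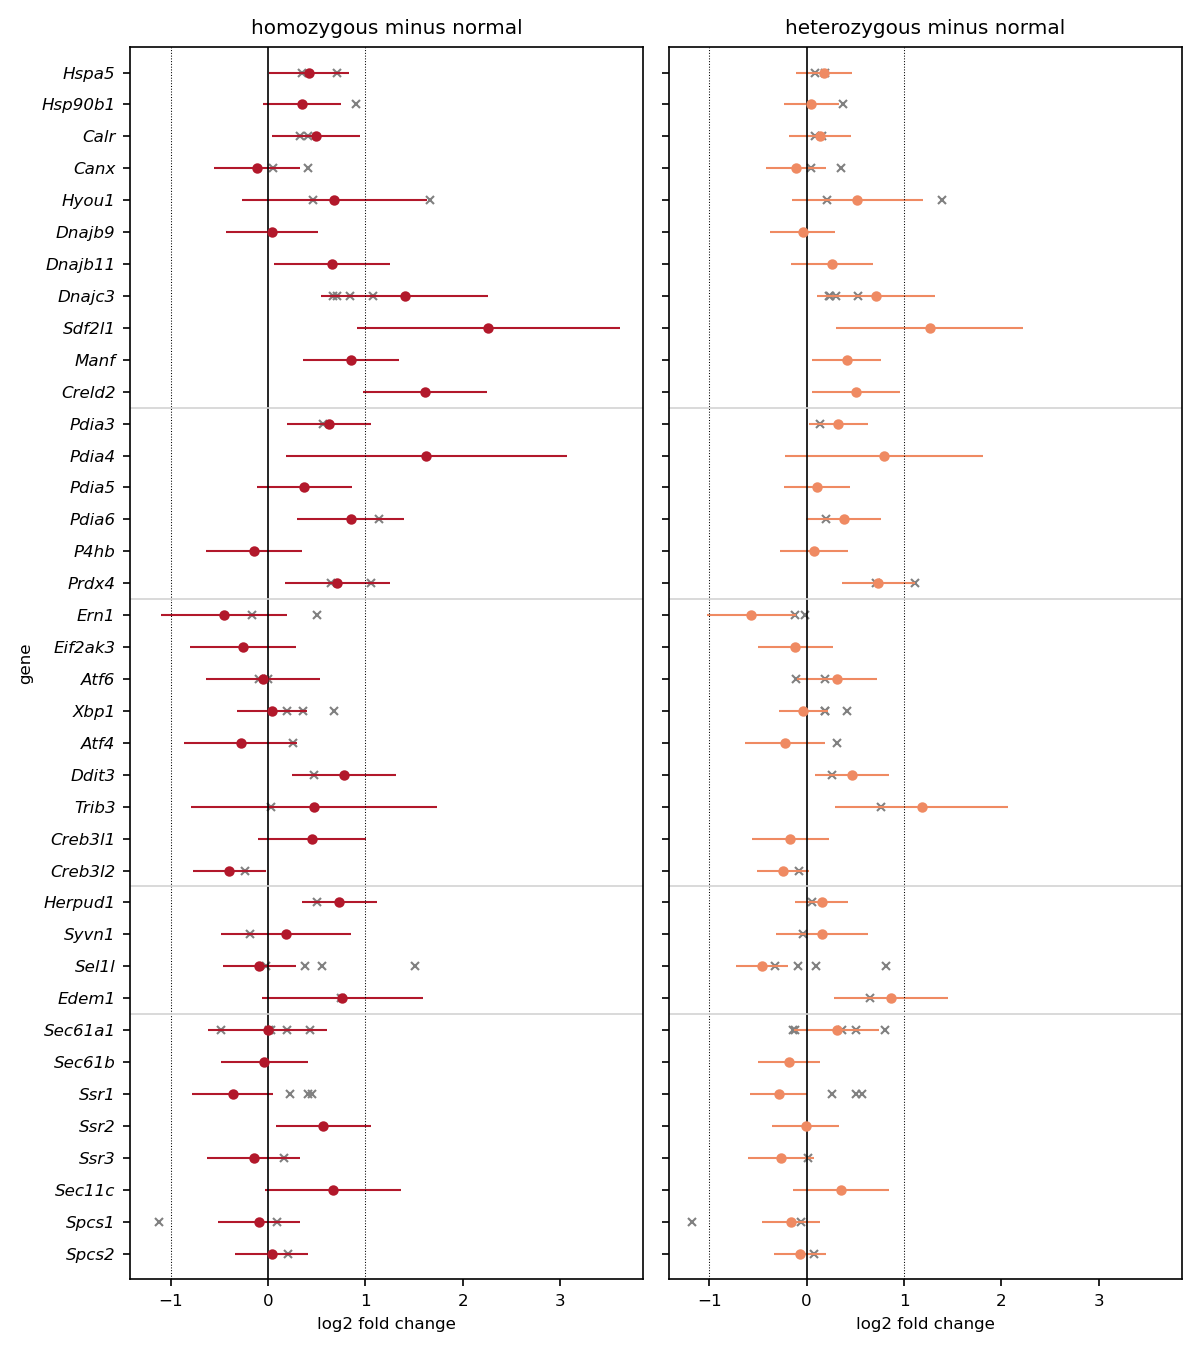
Log2 fold change against normal pituitary of the 38 genes in homozygous (left) and heterozygous (right) tumors, with 95% confidence intervals; grey crosses are the other tested probe sets of the same gene, dotted lines mark 2-fold, and grey lines separate the roles. Creld2, at 1.61 in homozygous tumors, is the one point of the chosen probe sets that passed both thresholds, and the crosses of Ssr1 lie on the other side of 0 from its point.

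Probe sets of one gene did not always run together. Of 47 further tested probe sets in 25 members, 29 had the sign of the chosen probe set in homozygous and 30 in heterozygous tumors. A dimmer probe set of Hyou1, a nucleotide exchange factor for Hspa5, had 1.39 in heterozygous tumors (adjusted p = 0.0264), against 0.52 (adjusted p = 0.232) for the chosen one. A dim probe set of Spcs1, a signal peptidase subunit, had -1.12 (adjusted p = 0.0364) in homozygous and -1.18 (adjusted p = 0.0017) in heterozygous tumors, against -0.09 and -0.16 for the chosen one. The chosen probe sets are the brightest of their genes, and which probe set tracks the coding transcript was not tested.

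The homozygous sample was compared with the heterozygous tumors, which retain a working Pomc allele. No member was called in either direction, against 0.228% of all genes called higher and 0.0488% called lower. At an unadjusted p under 0.05, 5 members were higher and 0 were lower, against 4.58% and 5.98% of all genes. Creld2 had the largest difference (log2 1.11, SE 0.25, adjusted p = 0.210), followed by Sdf2l1 (log2 1.0, SE 0.53, adjusted p = 0.655). With an F test over the 3 genotypes, which does not test this difference itself, Creld2 passed. Herpud1 differed by 0.57 (SE 0.15, adjusted p = 0.280).

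Although few members passed a test, the order of the samples was uneven. The homozygous sample was the highest of all 7 in 16 of 38 members (42.1%), against 7.77% of all genes tested. These were 8 of 11 chaperones, 4 of 6 disulfide enzymes, 2 of 9 sensors and factors, 1 of 4 degradation genes and 1 of 8 translocon genes. The count was 15 after repeated quantile normalization, 13 after centring on housekeeping genes and 20 without heterozygous sample 5-6. The homozygous sample was above all 4 heterozygous samples in 17 members (44.7%), against 18.4% of all genes, and above both normal samples in 25 (65.8%), against 37.6%. All 4 heterozygous samples were above both normal samples in 10 members (26.3%), against 25.4% of all genes, and below both in 4 (10.5%), against 25.6%. These counts were made after the data were seen and come from 1 homozygous sample, so they carry no test.

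Among the heterozygous tumors, sample 5-6 was the highest in 29 of 38 members (76.3%), against 23.0% of all genes tested, and sample 7-8 in 0. In 3 members sample 5-6 was instead the lowest, and these were Atf4, Ddit3 and Trib3. For the 11 chaperones its median difference from normal was 0.63, against 0.35 in sample 1-2, 0.13 in sample 3-4 and 0.13 in sample 7-8. Mki67, a proliferation marker, was at 9.13 in sample 5-6, the lowest of the 4. Xist did not separate this sample from 1-2, and its part in the order was not tested.

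Members with an ER stress response element were then set against those without, again after the data were seen and with no test. The 10 members with an element of either form had a median difference from normal of 0.58 in homozygous tumors, and 9 were above 0. Their median was 0.47 after centring on housekeeping genes, and 0.64 with the median over the probe sets of a gene. The 21 members with a promoter and no element had a median of 0.04, and 11 were above 0 (median -0.07 after centring on housekeeping genes, and 0.25 with the median over the probe sets of a gene). The homozygous sample was the highest of 7 in 8 of the 10, Canx and Syvn1 being the other 2, and in 5 of the 21. In heterozygous tumors the medians were 0.17 and -0.04. Most of the 10 are chaperones, and no sensor, factor or translocon gene with a promoter had an element, so this split overlaps with the split by role. Manf, Hyou1, Sec11c, Ssr2, Creb3l1, Sec61a1 and Atf6 had no promoter to read and are in neither set. In homozygous tumors they differed by -0.05 (Atf6) to 0.85 (Manf). Sdf2l1 and Pdia4, with the largest homozygous differences of the 21, had no match in their window, which says only that these letters are not there. Outside the 38, 13 tested genes with an element had a median of 0.01, and Derl3 alone among them was highest in the homozygous sample.

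**Figure D4:**
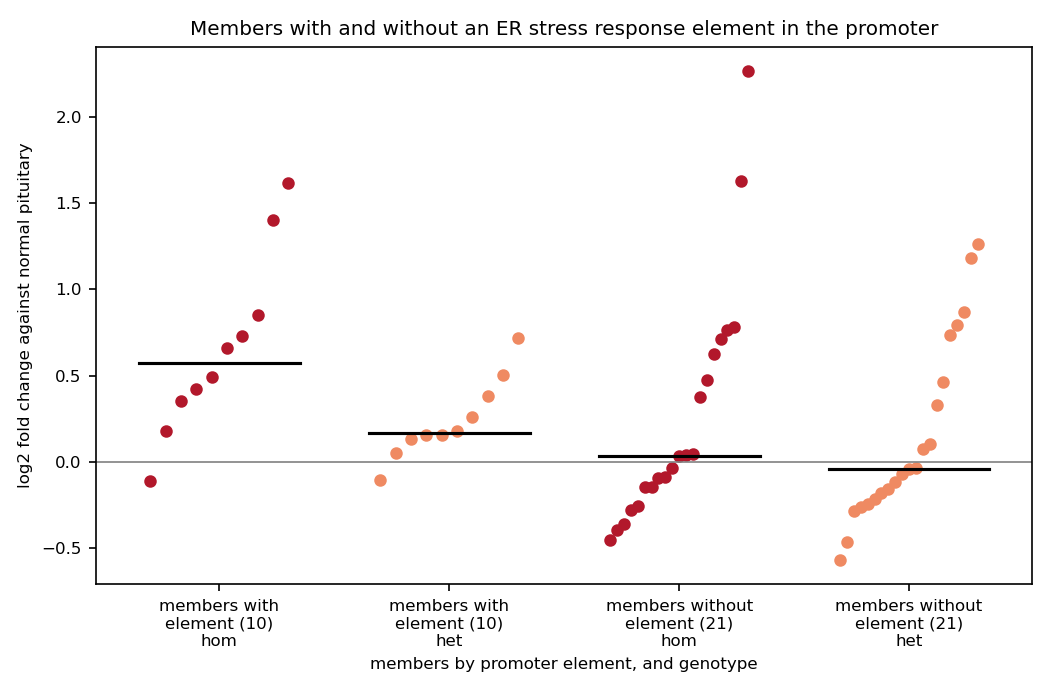
Log2 fold change against normal pituitary of the 10 members with and the 21 members without an ER stress response element in the promoter, in homozygous tumors (dark red) left of heterozygous tumors (orange); each point is a gene and black lines are medians. The medians in homozygous tumors are 0.58 and 0.04, and the ranges overlap. Most of the members with an element are chaperones.

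Other genes of the pathway were read from a list of 85, of which 81 were on the array and 80 were tested. In homozygous tumors 2 of 80 rose by the adjusted p alone and none fell, against 1.59% and 1.58% of all genes. In heterozygous tumors 8 rose and 2 fell, against 12.7% and 11.5% of all genes. Their medians were -0.02 and 0.07. Derl3, a channel protein of ER degradation that is known as a target of the Xbp1 branch, had 10.03 in the homozygous sample, 8.59, 8.54, 9.32 and 8.85 in heterozygous samples and 7.67 and 7.60 in normal pituitary. The groups did not overlap, and Derl3 was called in both, at 5.26-fold in homozygous tumors (log2 2.40, SE 0.31, adjusted p = 0.0155) and 2.29-fold in heterozygous tumors (log2 1.19, SE 0.22, adjusted p = 0.00904). As in Creld2 and Dnajc3, sample 5-6 was the highest heterozygous sample.

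Nupr1, a small stress-induced nuclear protein, had 8.23 in the homozygous sample, 9.02, 10.34, 9.49 and 10.08 in heterozygous samples and 7.67 and 7.76 in normal pituitary. It rose 4.04-fold in heterozygous tumors (log2 2.02, SE 0.34, adjusted p = 0.00685) and differed by 0.51 in homozygous tumors (adjusted p = 0.636). The homozygous sample was below every heterozygous sample, at a difference of -1.50 (adjusted p = 0.340). Sil1, a nucleotide exchange factor for Hspa5, rose by the adjusted p alone in homozygous (log2 0.93, SE 0.17, adjusted p = 0.0397) and heterozygous tumors (log2 0.47, SE 0.12, adjusted p = 0.0309). The other genes that rose by the adjusted p alone in heterozygous tumors were Fkbp2, Ero1a, Tmx1, Krtcap2 and Derl1, at 0.45 to 0.87, and those that fell were Tmem258 and Srpr, at -0.61 and -0.42. Of the 11 tested genes of the integrated stress response, 2 were above 0 in homozygous and 6 in heterozygous tumors.

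Plasma cells are rich in the same ER genes, so their markers were read beside them. Jchain, which joins antibody subunits, was at 8.60 in the homozygous sample, 6.40 to 7.39 in heterozygous samples and 4.90 and 5.09 in normal pituitary. It was called higher in both comparisons with normal pituitary, at 12.2-fold in homozygous and 3.65-fold in heterozygous tumors. Mzb1, another plasma cell gene, was at 5.51 in the homozygous sample, 5.14 to 5.36 in heterozygous samples and 5.27 and 5.28 in normal pituitary, below the signal filter. Cd79a, Tnfrsf17 and Pou2af1 did not pass the filter either. Ighm, an antibody heavy chain, was at 7.06 in the homozygous sample, 6.87 to 7.64 in heterozygous samples and 6.48 and 6.86 in normal pituitary. Sdc1, a surface protein of plasma cells and epithelia, was at 7.22 in the homozygous sample, 7.69 to 7.98 in heterozygous samples and 7.88 and 8.13 in normal pituitary. Jchain, Ighm and Sdc1, which passed the filter, thus differed in their order of samples. The summed signal of the 7 markers was 9.63 in the homozygous sample, 9.07 to 9.50 in heterozygous samples and 8.88 to 9.12 in normal pituitary. Their part in the signal of the ER genes was not tested.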

How the data were processed

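RNA of mouse pituitary tumors and normal pituitary was measured on 12 Affymetrix Mouse Genome arrays. The authors deposited log2 values made by RMA, which corrects background, normalizes quantiles and summarizes probes; the submitters' processing notes name Affymetrix Expression Console, with no version, and the study's methods another program. RMA makes arrays comparable only if most genes are unchanged. Of 45101 probe sets, 34945 named 1 gene, 932 several and 9160 none. A probe set was tested if at least 2 arrays reached 5.74, the overall median (24486 probe sets). Duplicate tumor arrays were averaged into 7 samples (4 residual degrees of freedom). Limma 3.58.1 in R 4.3.3 fitted the 3 genotypes, with p-values adjusted over all tested probe sets by the Benjamini-Hochberg method, and the script was tested on simulated data. A call needed more than a 2-fold difference as well as an adjusted p below 0.05, which are the study's thresholds. Named genes were called members, 7 genes of the response, and others said to be chosen after their values were seen. The members and lists were chosen with earlier results of these data known. Some other pathway genes and markers were not analysed here. Promoters came from RefSeq. Alternatives covered the filter, scaling, probe sets, replicates, threshold, test and Xist. The number of arrays limits the precision.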

Additional observations from a re-analysis of the deposited data

Results flagged for a closer look

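In 5 of the 38 genes 1 heterozygous sample stood apart from the other 3, by a test that flags about 1 in 20 groups of 4 by chance, and in each it was sample 5-6 on the high side. Hspa5 was at 14.15 in sample 5-6, against 13.86 to 13.89 in the other 3 heterozygous samples. Dnajb9 was at 12.73, against 12.33 to 12.37, and Dnajc3 was at 11.94, against 11.13 to 11.23. Creb3l1 was at 7.66, against 7.16 to 7.18, and Sec61b was at 12.95, against 12.61 to 12.64. The genes share 1 sample, so they are not independent of one another. The same count was not made over all genes, so whether it is particular to these 38 was not tested.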

How the results depend on the processing

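With 1 homozygous and 2 normal samples, depth of replication limits every call. Members called higher in homozygous tumors numbered 4 with 12 arrays as separate samples (Creld2, Sdf2l1, Dnajc3 and Pdia4), 3 with the pair of arrays as a random block and 0 with Xist as a covariate, against 1. Leaving out 1 sample gave 0 to 2, with 0 without heterozygous sample 1-2, normal sample 1 or normal sample 2, and 2 without heterozygous sample 5-6 (Creld2 and Dnajc3). Members called higher in heterozygous tumors numbered 1 with the median over probe sets (Prdx4), 2 with no minimum fold (Prdx4 and Edem1), 2 with 12 arrays and 2 with the random block (Sdf2l1 and Trib3 each time) and 2 with Xist as a covariate (Sdf2l1 and Edem1), against 0, and 0 to 1 when 1 sample was left out (1, Trib3, without heterozygous sample 5-6). Members called lower there numbered 1 with no minimum fold. Between homozygous and heterozygous tumors, 12 arrays, the random block and the F test each gave 1 (Creld2), against 0. Treating duplicate arrays as separate samples gives each pair the weight of 2 samples. Apart from the rule with no minimum fold, the share of all genes called was not counted under these alternatives. Whether a changed count is particular to the members was therefore not tested. With 12 arrays and the replicate number as a block, the counts higher were 4 in homozygous tumors, 2 in heterozygous tumors and 1 between them. The difference between arrays 1 and 2 was little correlated from group to group (r 0.068, -0.023 and -0.0026). In both tumor groups these 2 arrays were taken as duplicates of 1 sample, so this cannot show whether the numbers pair the samples. The adjusted p of Creld2 in homozygous tumors ranged between 0.000592 and 0.131 over all alternatives. The remaining counts kept their side of the threshold.

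Centring on 9 housekeeping genes moved the median of all tested probe sets to -0.09 in heterozygous and -0.10 in homozygous tumors, against 0.03 and 0.01, so the members' medians of 0.03 and 0.29 under it are to be read relative to that. Some named genes changed sign. None had passed both thresholds in the comparison in which its sign changed, but Sel1l had passed the adjusted p alone in heterozygous tumors. With the median over probe sets, Xbp1 was 0.19, Atf4 0.045 and Sel1l 0.022 in heterozygous tumors, and Sel1l was 0.51 and Atf6 0.0012 in homozygous tumors. With Xist as a covariate, Xbp1 was 0.0011 and Eif2ak3 0.041 in heterozygous tumors, and Atf6 was 0.33, Eif2ak3 0.066, Trib3 -0.082 and Nupr1 -0.46 in homozygous tumors. With the replicate block, Eif2ak3 was 0.029 in heterozygous tumors. Xbp1 in homozygous tumors was -0.041 after repeated quantile normalization and -0.064 after centring on housekeeping genes. Leaving out 1 sample put Atf6 between -0.12 and 0.023 and Sel1l between -0.19 and 0.016 in homozygous tumors. The cause of these changes was not tested.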
